A study of Mus musculus with 6 samples.

Results

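The genes of oxidative phosphorylation were described in the livers of 6 mice. The members were the rows of the deposited gene table whose symbol begins with Nduf, Uqcr or Atp5, or with Cox followed by a digit, together with Sdha, Sdhb, Sdhc and Sdhd. Of 26608 gene symbols, 97 fitted this rule, and the 93 with at least 10 counts summed over the 6 mice were kept. They comprise 79 subunits of the respiratory complexes, 12 assembly factors and 2 other genes, Atp5s and Cox4nb. Just inside the threshold lay Cox4i2 with 10 counts, Cox6a2 with 15 and Sdhd with 24, and just outside it lay Cox8b with 4, Uqcr11 with 3, Cox8c with 1 and Cox7b2 with 0. Uqcr11 and Sdhd encode subunits made in most tissues, and a low count in this table does not show that they are absent from the liver.

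Oxidative phosphorylation takes place in the inner mitochondrial membrane. Complexes I and II pass electrons from NADH and succinate to ubiquinone, complex III passes them on to cytochrome c, and complex IV passes them to oxygen. Complexes I, III and IV pump protons, and complex V, the ATP synthase, uses the resulting gradient to make ATP. Hepatocytes are rich in mitochondria and draw on this pathway for gluconeogenesis and the urea cycle. Most subunits are encoded in the nucleus and a few in mitochondrial DNA. The 13 genes encoded in mitochondrial DNA were not analysed here.

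Liver RNA came from 3 LiK and 3 LiKM mice, all aged 6 weeks, and was sequenced after messenger RNA selection. The labels give the genotypes only as LiK and LiKM. As known from the published work and not from the labels, both lines use Cre recombinase under the albumin promoter, which acts in hepatocytes, and LiKM hepatocytes differ in lacking Mdm2, the ubiquitin ligase that restrains p53. The comparison addresses what Mdm2 loss in hepatocytes adds to this liver. The sex of the mice is not given in the sources used here, and with 3 mice a genotype the p-values measure the spread between these animals only.

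The libraries held between 19909993 and 24874343 counts. Over all 13537 genes that passed the expression filter, edgeR's quasi-likelihood test called 802 genes (5.92%) at a threshold of 0.05 on the p adjusted by Benjamini and Hochberg's method. In LiKM, 692 genes (5.11% of those tested) were higher and 110 (0.813%) lower. Leaving out LiK 1, LiK 2, LiK 3, LiKM 1, LiKM 2 and LiKM 3 in turn gave 31, 19, 311, 376, 47 and 626 calls. Mdm2 was at 28.7, 29.0 and 28.6 CPM (the usual depth-normalised read count, here after TMM scaling) in the LiK mice and at 122, 125 and 60.5 CPM in the LiKM mice. Its gene-level count adds up exons inside and outside a deleted part, so it is no check of the deletion. The hepatocyte markers summed to 142214 to 159964 CPM in LiK and 143548 to 160120 CPM in LiKM, and Alb, Apoa1 and the other markers were present in every library. In tissue RNA, fewer cells of a type and less RNA per cell cannot be told apart.

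Of 76 members with a start site in RefSeq's promoter table (GRCm38.p6), 8 (10.5%) held the NRF1 motif GCGCATGCG, on either strand, in the window from 250 bases before to 50 bases after the start. The share was 3.96% of the 9520 tested genes with a promoter. The YY1 motif AAGATGGCG was found in 9 members (11.8%) against 3.34% of tested genes, and the ETS motif CCGGAAG in 19 members (25%) against 18.8%. CCAAT was found in 34 members (44.7%) against 43.0%, and TATAAA in 6 (7.89%) against 9.41%. NRF1 and ETS factors are known activators of nuclear genes for the respiratory chain. The 6 upstream stretches below, 5′ to 3′ on the gene's strand, belong to the members on which the results turn: the isoform pair Cox6b1 and Cox6b2, the assembly factor Atp5sl, the complex I subunit Ndufb3, the ATP synthase subunit Atp5e, and Cox6a1 as a member with the NRF1 motif. Capitals mark the NRF1, ETS, YY1 and CCAAT motifs on either strand, and the stretches stop short of annotated exons.
Cox6b1: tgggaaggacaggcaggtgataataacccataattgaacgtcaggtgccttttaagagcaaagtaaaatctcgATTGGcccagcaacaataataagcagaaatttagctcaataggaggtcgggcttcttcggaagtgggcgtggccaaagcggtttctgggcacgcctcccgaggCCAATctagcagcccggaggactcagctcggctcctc
Cox6b2: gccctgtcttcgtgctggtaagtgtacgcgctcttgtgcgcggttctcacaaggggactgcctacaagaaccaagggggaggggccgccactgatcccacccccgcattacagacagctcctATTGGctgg
Atp5sl: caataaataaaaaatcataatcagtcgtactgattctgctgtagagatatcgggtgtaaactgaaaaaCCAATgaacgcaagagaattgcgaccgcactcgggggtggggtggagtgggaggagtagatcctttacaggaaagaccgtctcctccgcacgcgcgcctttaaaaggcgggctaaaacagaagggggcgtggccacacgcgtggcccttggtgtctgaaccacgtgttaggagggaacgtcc
Ndufb3: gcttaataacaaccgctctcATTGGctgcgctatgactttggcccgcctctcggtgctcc
Cox6a1: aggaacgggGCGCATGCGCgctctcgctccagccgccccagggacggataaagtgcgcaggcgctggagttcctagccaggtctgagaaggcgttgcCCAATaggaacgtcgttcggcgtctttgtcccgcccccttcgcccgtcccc
Atp5e: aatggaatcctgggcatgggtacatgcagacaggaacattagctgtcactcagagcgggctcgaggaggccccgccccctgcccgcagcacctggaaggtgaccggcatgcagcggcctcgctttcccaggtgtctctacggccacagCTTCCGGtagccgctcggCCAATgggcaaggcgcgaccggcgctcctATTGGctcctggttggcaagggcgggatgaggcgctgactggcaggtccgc
The Cox6b1 stretch is chr7:30626152-30626364 on the minus strand and holds 2 CCAAT motifs, while the Cox6b2 stretch, chr7:4753095-4753225 on the minus strand, holds 1. The Atp5sl stretch is chr7:25619164-25619413 and the Ndufb3 stretch chr1:58586324-58586383, both on the plus strand and each with 1 CCAAT motif. Cox6a1, at chr5:115348982-115349129 on the minus strand, holds the NRF1 motif on both strands in overlapping letters and 1 CCAAT motif, and Atp5e, at chr2:174464106-174464351 on the minus strand, holds 1 ETS and 2 CCAAT motifs. Outside the stretches shown, Cox6b1 and Cox6a1 also held the ETS motif and Atp5sl the YY1 motif, and these are counted above. The median log2 fold change of members with the NRF1 motif was -0.18, against -0.19 for members without it, and the YY1 and ETS motifs gave the same pair of values. A match is a description of the letters and not a binding site.

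Across the 5 complexes, nearly all members had a small negative difference in LiKM after TMM scaling, and 2 single genes passed the test. Cox6b2, a complex IV subunit isoform best known from testis, rose, and Atp5sl, an assembly factor of complex I, fell. Of the 6 fits that each left out 1 mouse, 2 kept the call of Cox6b2 and 0 that of Atp5sl. Cox6b2 passed the expression filter through the LiKM mice, so it had to differ to be tested. Of the 89 members that passed the expression filter, 85 had a log2 fold change below 0, with a median of -0.19, which corresponds to 12.6% less. Over all genes tested, 50.5% had a log2 fold change below 0 and the median was -0.0034. Every LiKM mouse lay below every LiK mouse for 43 members (48.3%), a pattern shown by 11.8% of all genes tested. An unadjusted p under 0.05 in the lower direction was reached by 24 members (27.0%), against 7.05% of all genes. DESeq2 called 6 of the members lower and 1 higher, beside 2.79% and 8.98% of all genes to which it gave an adjusted p. The 2 members of 89 called by edgeR stand beside 5.92% of all genes called, the 1 lower beside 0.813% and the 1 higher beside 5.11%.

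The size of the difference, and its sign for some members, depended on how the libraries were scaled. With library totals in place of TMM (the trimmed mean of M values), 66 of 89 members had a log2 fold change below 0. Among all 13537 genes tested, 3884 did. The members' median was -0.035, while the median of all genes moved to 0.16. Relative to the median of all genes the members' median was -0.19 under both scalings. This difference could hardly change, since a change of scaling moves all genes by nearly the same amount. With library totals Sdha, Atp5b, Cox6b1, Uqcrc2 and Uqcrc1 lay just above 0, from 0.0034 to 0.022. In that scaling 16 members had every LiKM mouse below every LiK mouse, where 3.87% of all genes did. Expressed as a share of the unscaled counts, the members took 1.06% ± 0.0527 of a LiK library and 1.03% ± 0.0551 of a LiKM library (SD, n = 3 each), and the shares of the 6 mice overlapped.

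**Figure D1:**
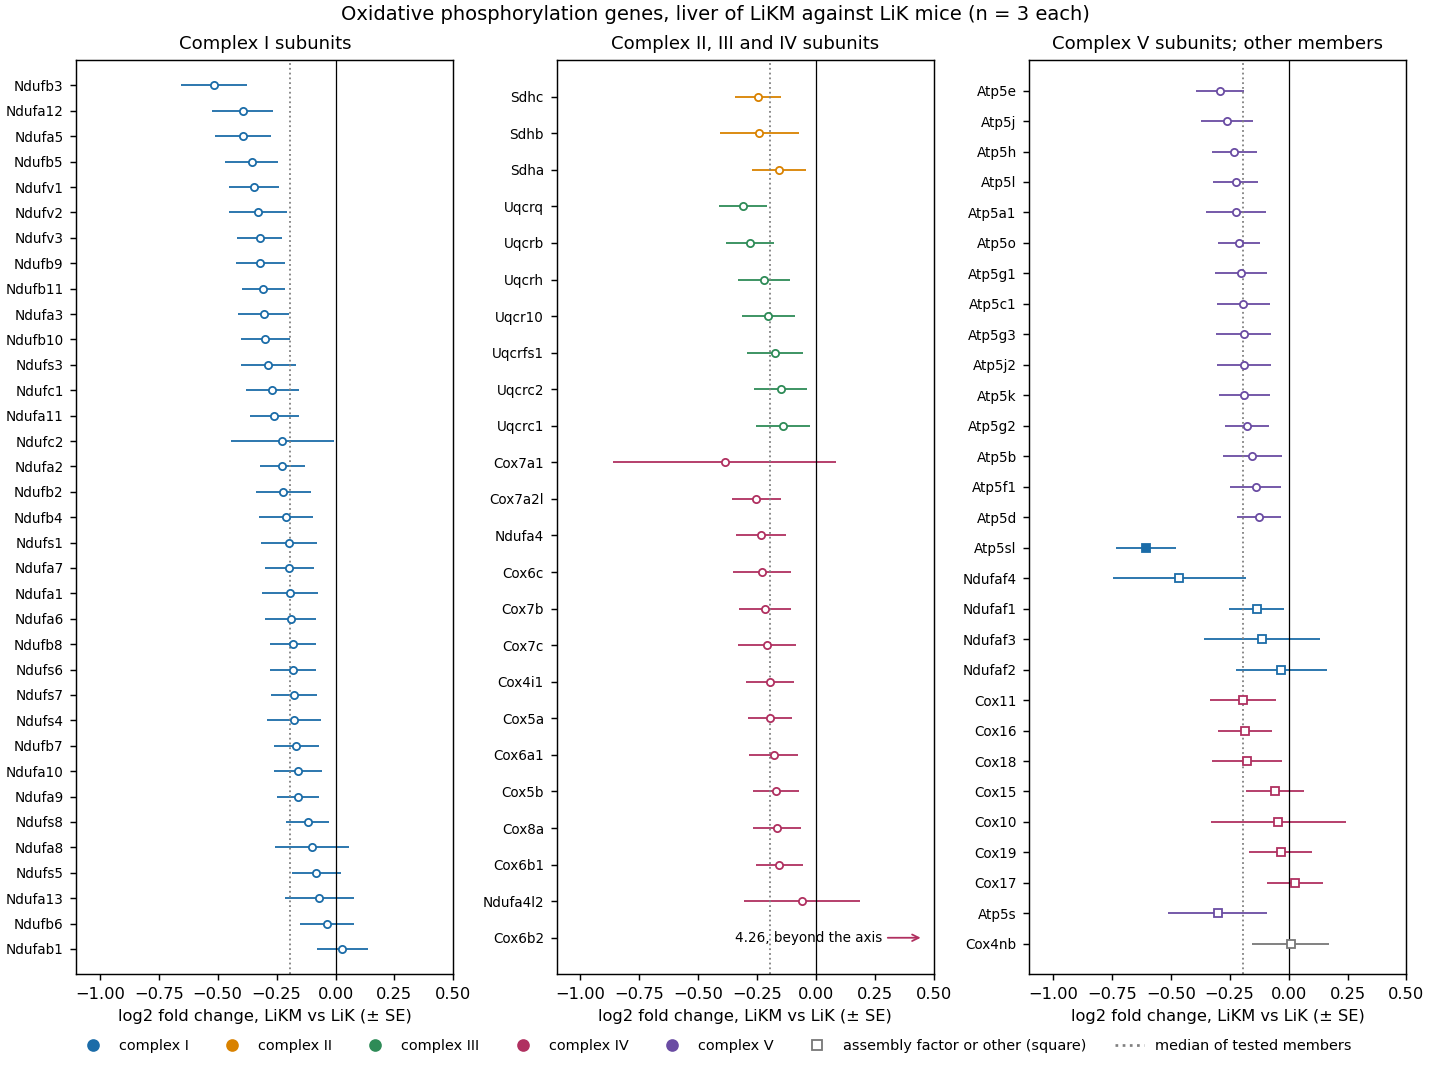
Log2 fold change of LiKM against LiK with its standard error (x axis) for the tested members (y axis) except 1 complex I subunit that is not drawn, after TMM scaling. Filled symbols mark genes with an adjusted p under 0.05, squares mark assembly factors and others, and the dotted line is the members' median of -0.19. Of the members drawn, those at or right of 0 are Ndufab1, Cox17, Cox4nb and Cox6b2, which lies beyond the axis at 4.26, and the rest lie left of it.

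**Figure D2:**
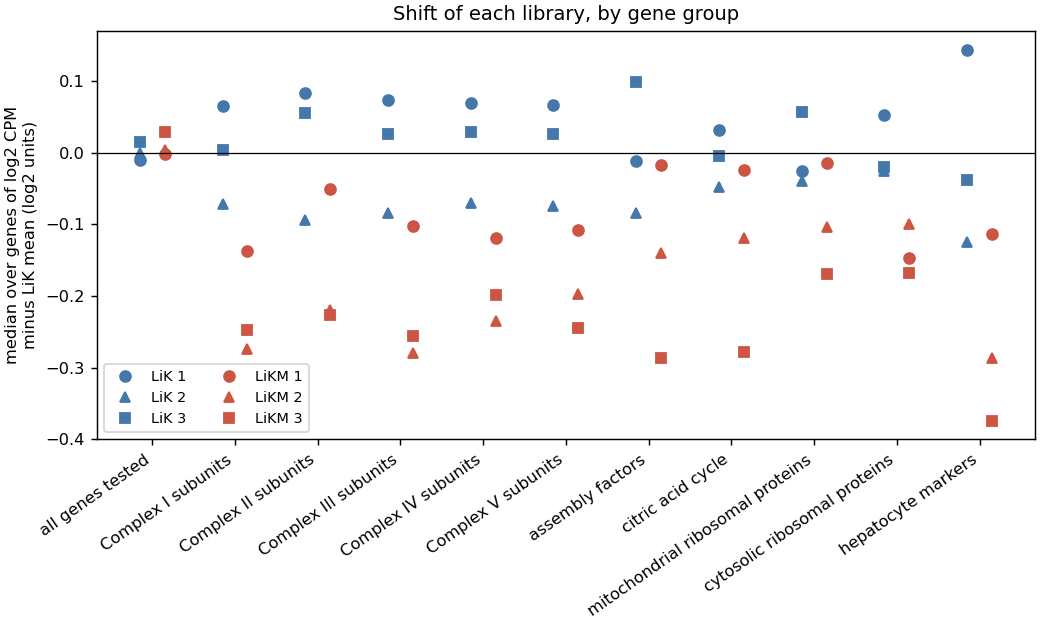
Median over the genes of a group (x axis) of the log2 CPM in each mouse minus the mean of the 3 LiK mice (y axis, log2 units). For complexes I, III, IV and V each LiKM mouse lies below each LiK mouse, while for complex II LiKM 1 at -0.05 lies above LiK 2 at -0.09.

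The 3 LiKM mice were not alike in this respect. The median offset of all members from the LiK mean was 0.07, -0.08 and 0.03 in LiK 1, LiK 2 and LiK 3, and -0.11, -0.23 and -0.24 in LiKM 1, LiKM 2 and LiKM 3 (log2 units). The gap between LiK 2 and LiKM 1 was thus small beside the spread within each genotype. Leaving out each mouse in turn kept the median of the 75 or 76 tested subunits between -0.27 and -0.18, with 71 to 74 of them below 0. The medians of the complexes were close to one another, from -0.19 for complexes IV and V to -0.24 for complex II.

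**Figure D3:**
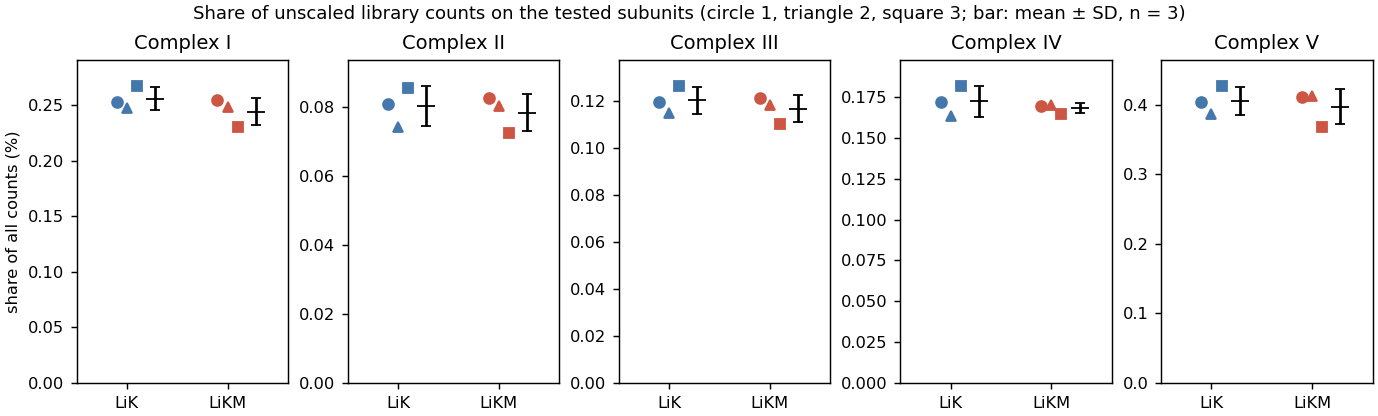
Share of all unscaled counts of a library (y axis, %) taken by the tested subunits of each complex, with 1 symbol a mouse and bars for mean ± SD (n = 3 mice a genotype). The genotypes overlap for every complex, and complex V takes the largest share, 0.406% ± 0.0202 in LiK and 0.397% ± 0.0253 in LiKM.

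Complex I, which oxidises NADH, had 36 members, and all were tested. No subunit was called by edgeR's quasi-likelihood test, 35 of 36 had a log2 fold change below 0 (30 with library totals), and the median was -0.20. An unadjusted p under 0.05 was reached by 15 (41.7%), all lower, against 7.05% of all genes. DESeq2 called 4 lower, Ndufb3, Ndufb11, Ndufv1 and Ndufv3, beside 2.79% of all genes. In 23 of the 36 (63.9%), every LiKM mouse lay below every LiK mouse, against 11.8% of all genes. With library totals this held for 9 subunits, against 3.87% of all genes. The exception to the direction was Ndufab1, the mitochondrial acyl carrier protein, at 0.03.

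Ndufb3, a small accessory subunit of the membrane arm, was measured at 53.6, 48.9 and 50.03 CPM in LiK against 42.4, 30.9 and 33.4 CPM in LiKM. The genotypes did not overlap, and LiKM 1 was the nearest to the LiK mice. Its log2 fold change was -0.52 (SE 0.14), the most negative of any tested subunit, at an edgeR adjusted p of 0.0782 by Benjamini-Hochberg. Without LiKM 1 its adjusted p was 0.0469, and DESeq2 gave 0.0229.

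Ndufa12, an accessory subunit of the matrix arm, was at 17.4, 14.7 and 15.1 CPM in LiK against 12.9, 11.8 and 11.3 CPM in LiKM, for a log2 fold change of -0.39 and an edgeR adjusted p of 0.125. Ndufa5, also of the matrix arm, was at 45.3, 39.4 and 40.0 CPM against 35.3, 31.1 and 28.5 CPM, likewise at -0.39 (edgeR adjusted p = 0.109). Both genes were without overlap between the genotypes. Of the 50-base stretches in the GENCODE transcripts of Ndufa12, 26.2% also occur in another gene, so its counts are uncertain to that extent, while Ndufa5 shares none.

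The 3 Ndufv genes encode some of the subunits of the module that takes electrons from NADH. Ndufv1, which binds NADH and the flavin, was at 182, 173 and 169 CPM in LiK against 150, 135 and 126 CPM in LiKM, so the lowest LiK mouse stood clear of the highest LiKM mouse. Its log2 fold change was -0.35 (SE 0.11), at an edgeR adjusted p of 0.111 and a DESeq2 adjusted p of 0.0409. Ndufv2 and Ndufv3, chosen like Ndufb11 and Ndufb5 after their values were seen, were at -0.33 and -0.32 (edgeR adjusted p of 0.171 and 0.104), also without overlap. With library totals Ndufv2 overlapped between the genotypes. The 10 Ndufb genes of the membrane arm had a median of -0.26. In 7 of them (70%) every LiKM mouse lay below every LiK mouse, against 11.8% of all genes. Among these 7, Ndufb5 was at -0.36, Ndufb9 at -0.32 and Ndufb11 at -0.31. Ndufb6, at -0.04, was the nearest to 0 of the 10 and overlapped between the genotypes. With library totals every LiKM mouse lay below every LiK mouse for 3 of the 10, against 3.87% of all genes. The 7 core subunits, shared with bacteria, and the 29 accessory subunits differed little, with medians of -0.20 and -0.21.

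Complex II, succinate dehydrogenase, also serves the citric acid cycle. Of its 4 genes, 3 were tested and none was called by edgeR or DESeq2, with Sdhc at an unadjusted p under 0.05. All 3 had a log2 fold change below 0 (2 with library totals), with a median of -0.24. Sdha, the flavoprotein, was at 493, 450 and 499 CPM in LiK against 464, 419 and 412 CPM in LiKM (log2 fold change -0.16, SE 0.11). Sdhb, the iron-sulphur subunit, was at 215, 158 and 199 CPM against 187, 162 and 135 CPM (-0.24, SE 0.17). Both overlapped between genotypes. Sdhc, a membrane anchor, was at 187, 168 and 176 CPM against 154, 143 and 151 CPM, without overlap, and had a log2 fold change of -0.25 (SE 0.10) and an adjusted p of 0.202 by edgeR. Sdhd, the partner anchor, was listed with 3, 3 and 3 counts in LiK against 2, 6 and 7 in LiKM and was not tested. None of the 50-base stretches of Sdhd occurs in another gene, and the cause of its low count was not tested.

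Complex III had 7 members, all tested and all with a log2 fold change below 0 (5 with library totals) and a median of -0.20. None was called by edgeR and DESeq2 called Uqcrq. An unadjusted p under 0.05 was reached by 2, both lower, against 7.05% of all genes. Uqcrq, a small subunit that touches cytochrome b, was at 248, 237 and 237 CPM in LiK against 195, 182 and 205 CPM in LiKM. The genotypes were separated by more than the range within either, with a log2 fold change of -0.31 (SE 0.10) and an edgeR adjusted p of 0.129 (DESeq2 0.0287). Uqcrb was at 110, 95.4 and 98.3 CPM against 88.4, 80.1 and 81.5 CPM, also without overlap (-0.28, edgeR adjusted p = 0.166), but 43.4% of its 50-base stretches occur in other genes. The larger core proteins Uqcrc1 and Uqcrc2 had the smallest differences, -0.14 and -0.15. Uqcrc1 was at 274, 250 and 272 CPM in LiK against 259, 247 and 217 CPM in LiKM, which overlap.

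Complex IV, cytochrome c oxidase, had 17 members, several of which are alternative isoforms for other tissues. Of the 14 tested, 13 had a log2 fold change below 0 (11 with library totals), with a median of -0.19, and Cox6b2 was the exception. An unadjusted p under 0.05 was reached by 1 lower, Cox7a2l, against 7.05% of all genes, and by Cox6b2. In 7 of the 14 (50%) every LiKM mouse lay below every LiK mouse, against 11.8% of all genes. With library totals this held for 1 subunit, against 3.87% of all genes. For Cox4i1, the common form of subunit IV, the mice were at 323, 308 and 311 CPM in LiK against 280, 262 and 280 CPM in LiKM, without overlap (-0.19, edgeR adjusted p = 0.308). Ndufa4, once placed in complex I and now counted to complex IV, was at 228, 197 and 215 CPM against 187, 173 and 186 CPM (-0.23). Cox6a1 was at 204, 190 and 202 CPM against 183, 162 and 182 CPM (-0.18). Cox8a was at -0.16 and Cox7a2l, which helps to join complexes III and IV, at -0.25. In the GENCODE transcripts 12.3% of the 50-base stretches of Cox4i1 also occur in Emc8, the gene that the table lists as Cox4nb. The abundant subunits stayed within 1 narrow band of differences, none of them called.

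Cox6b2 was counted 0, 6 and 6 times in the LiK libraries and 91, 93 and 50 times in the LiKM libraries. In CPM this is 0, 0.302 and 0.246 against 4.28, 4.22 and 2.41, or 0.183 ± 0.161 and 3.64 ± 1.06 (SD, n = 3). LiKM 3 was the lowest of its genotype, as it was for Mdm2, yet stood far above every LiK mouse. The log2 fold change was 4.26 (SE 0.64), at an edgeR adjusted p of 0.021 by Benjamini-Hochberg and a DESeq2 adjusted p of 2.67e-10. Because the gene passed the expression filter through the LiKM mice, it had to differ to be tested, and the fitted fold change depends on counts near 0. Leaving out LiK 1, LiK 2, LiK 3 or LiKM 2 raised edgeR's adjusted p to 0.0506, 0.0701, 0.0512 and 0.0763, with the log2 fold change between 3.71 and 4.74 over the 6 such fits.

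Subunit VIb, which holds the cytochrome c oxidase dimer together on the side facing cytochrome c, is made in most tissues from Cox6b1. Cox6b1 was at 155, 135 and 145 CPM in LiK against 135, 131 and 126 CPM in LiKM (-0.15, edgeR adjusted p = 0.417). Cox6b2 counts amounted to 0%, 0.224% and 0.169% of Cox6b1 counts in LiK and to 3.17%, 3.22% and 1.92% in LiKM, so Cox6b1 held nearly all counts of this subunit in both genotypes. Neither gene shares a 50-base stretch with another gene in the GENCODE transcripts. The neighbouring gene Suv420h2 was at 22.6 ± 1.26 CPM in LiK against 22.2 ± 1.83 CPM in LiKM (SD, n = 3).

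**Figure D4:**
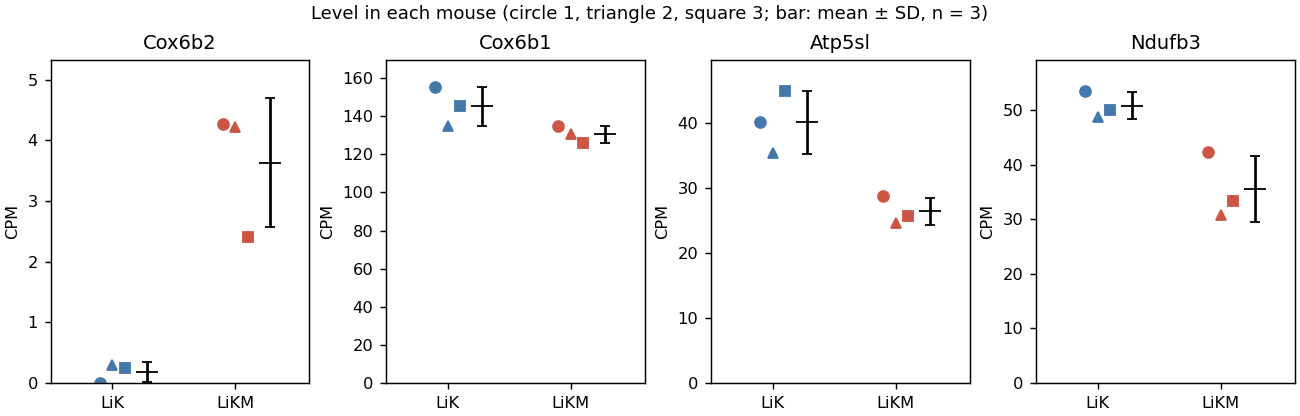
CPM after TMM scaling (y axis) in each LiK and LiKM mouse (x axis), with bars for mean ± SD (n = 3 mice a genotype), for Cox6b2, Cox6b1, Atp5sl and Ndufb3. Cox6b2 reaches at most 0.302 CPM in LiK mice and at least 2.41 CPM in LiKM mice, and Atp5sl and Ndufb3 are lower in every LiKM mouse than in any LiK mouse.

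The other isoform genes were at low levels. Cox7a1, the muscle form of subunit VIIa, was at 1.01, 0.956 and 0.821 CPM in LiK against 0.517, 0.363 and 1.25 CPM in LiKM. LiKM 3 alone was above the LiK mice, and the log2 fold change of -0.39 had an SE of 0.47. Ndufa4l2, a paralogue of Ndufa4 known as a hypoxia target, was at 1.54, 1.71 and 1.97 CPM against 1.93, 1.45 and 1.64 CPM, which overlap. Cox4i2, the lung form, had at most 3 counts in any library and Cox6a2, the muscle form, at most 5, so a difference was not detectable at this depth. Cox7a2, the form of subunit VIIa common in liver, was listed with only 6, 10 and 18 counts in LiK against 8, 5 and 28 in LiKM and was not tested.

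Complex V, the ATP synthase, had 15 members, all tested and all with a log2 fold change below 0 (12 with library totals), from -0.29 to -0.13 with a median of -0.19. None was called by edgeR or DESeq2, and 4 (26.7%) reached an unadjusted p under 0.05, all lower, against 7.05% of all genes. Atp5b, the catalytic beta subunit, was at 1265, 1133 and 1234 CPM in LiK against 1170, 1075 and 1021 CPM in LiKM, which overlap (-0.15, SE 0.13). Atp5a1, the alpha subunit, was at 1137, 1051 and 1101 CPM against 1017, 956 and 843 CPM, without overlap (-0.22, SE 0.13, edgeR adjusted p = 0.356). These are the most abundant transcripts of the complex by CPM. Atp5e, the small epsilon subunit of the central stalk, had the most negative difference, with 89.3, 85.0 and 89.5 CPM in LiK against 78.0, 66.0 and 71.4 CPM in LiKM (-0.29, SE 0.10, edgeR adjusted p = 0.148). Atp5j, coupling factor 6 of the peripheral stalk, was at 162, 138 and 151 CPM against 135, 118 and 124 CPM (-0.26). The 5 subunits of the F1 head and the 10 of the membrane part and stalk had medians of -0.19 and -0.20.

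Subunit c, which forms the rotating ring, is encoded by a set of 3 genes whose mature proteins are the same. Atp5g3 was at 338, 292 and 341 CPM in LiK against 303, 279 and 269 CPM in LiKM, Atp5g1 at 161, 138 and 146 against 139, 120 and 128, and Atp5g2 at 75.8, 70.5 and 76.3 against 68.6, 64.8 and 63.7. Their log2 fold changes were -0.19, -0.20 and -0.18, and none of the 3 passed the test. Per kilobase of transcript the order in LiK was Atp5g3 at 451, Atp5g2 at 127 and Atp5g1 at 55.5 CPM per kb, and in LiKM it was 395, 112 and 48.2. Atp5g2 shares 38.3% and Atp5g1 11.1% of 50-base stretches with other genes, Atp5g3 none.

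**Figure D5:**
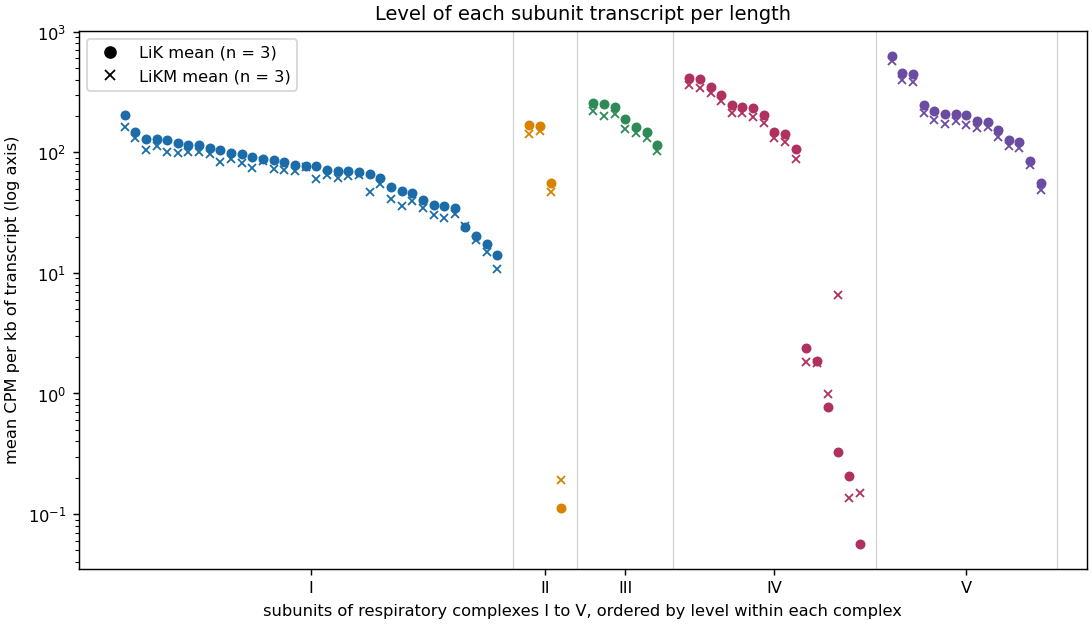
Mean CPM per kilobase of transcript (y axis, log scale) of each subunit in LiK (circles) and LiKM (crosses), ordered by level within complexes I to V (x axis), n = 3 mice a genotype. Most pairs nearly coincide, Atp5b is the highest at 632 and 568, and Cox6b2 in complex IV is the pair farthest apart.

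Per length, the transcript levels differed between the complexes. In LiK the median subunit was at 77.0 CPM per kb for complex I, 111 for complex II, 189 for complex III, 235 for the common subunits of complex IV and 203 for complex V. After Atp5b the highest were Atp5g3 at 451, Atp5a1 at 444, Cox4i1 at 416 and Ndufa4 at 402 CPM per kb. The highest complex I subunit was Ndufb9 at 203, the highest in complex III Uqcrh at 258, and Sdhb and Sdha stood at 167 and 166. The 12 assembly factors had a median of 9.87 CPM per kb and ranged from 5.77 to 16.8. This is below most subunits but not all, since Ndufa12 was at 14.2 and the rarely counted isoform genes, Sdhd and Cox7a2 were lower still. Lengths are those of the principal GENCODE transcript, which may not be the form made in liver.

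The assembly factors build the complexes and are not part of them. Their median log2 fold change was -0.12, and 11 of the 12 were below 0 (5 with library totals, where their median was 0.03). Atp5sl, now named Dmac2 and needed for the distal membrane arm of complex I despite its older symbol, was at 40.1, 35.3 and 45.0 CPM in LiK against 28.8, 24.7 and 25.7 CPM in LiKM. It fell from 40.1 ± 4.82 to 26.4 ± 2.15 CPM (SD, n = 3), a log2 fold change of -0.61 (SE 0.13), and edgeR gave an adjusted p of 0.0405 by Benjamini-Hochberg. No fit that left out a mouse kept the call, with edgeR adjusted p of 0.0586 to 0.134 and log2 fold changes of -0.70 to -0.52 over 6 such fits, nor did library totals (-0.45, edgeR adjusted p = 0.0813). None of its 50-base stretches occurs in another gene.

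Ndufaf4, another complex I assembly factor, was at 48.6, 41.5 and 37.0 CPM in LiK against 37.3, 37.3 and 17.5 CPM in LiKM. The genotypes overlapped and LiKM 3 stood apart from the rest (edgeR adjusted p = 0.385). The 7 complex IV assembly factors had a median of -0.06. Cox10, a heme A synthesis enzyme, was at 18.2, 14.9 and 17.3 CPM against 19.7, 20.1 and 9.16 CPM, with LiKM 3 again the lowest. Cox17 and Cox19, which handle copper for the oxidase, were at 0.03 and -0.03. Atp5s, a regulator of the synthase known as factor B, was at -0.30 (edgeR adjusted p = 0.448). Cox4nb, which the rule takes in by its symbol, encodes a subunit of the membrane complex of the endoplasmic reticulum and no respiratory gene, and was at 0.01.

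Other lists of the pathway had medians between -0.16 and -0.01. Of 42 tested electron carriers, further assembly factors and inhibitors, none was called by edgeR or DESeq2, and the median was -0.16. An unadjusted p under 0.05 was reached by 7 (16.7%) lower and 1 higher. Over all genes tested this was 7.05% lower and 2078 of 13537 higher. Cyc1, the cytochrome c1 of complex III, was at 252, 226 and 237 CPM in LiK against 207, 207 and 181 CPM in LiKM, without overlap (-0.26, edgeR adjusted p = 0.213). Of 9 respiratory genes listed under older symbols, none was called by edgeR or DESeq2, and the median was -0.15. In this list 1 (11.1%) reached an unadjusted p under 0.05, lower. Of 13 genes of coenzyme Q synthesis none was called by edgeR, DESeq2 called Coq10a lower, and the median was -0.01. Here 1 lower (7.69%) and 1 higher reached an unadjusted p under 0.05. Of 22 regulators of mitochondrial biogenesis and mitochondrial DNA, 19 were below 0 (10 with library totals), with a median of -0.13. Polg2, the accessory subunit of the mitochondrial DNA polymerase, was at 7.27, 9.06 and 8.50 CPM in LiK against 5.03, 5.08 and 3.76 CPM in LiKM, and it fell (log2 fold change -0.84, edgeR adjusted p = 0.046), though not in any of the 6 fits without 1 mouse nor with library totals (edgeR adjusted p = 0.0925).

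The citric acid cycle, which supplies NADH and succinate, had 14 tested genes with a median of -0.15, of which 11 were below 0 (6 with library totals). Idh2, the mitochondrial isocitrate dehydrogenase that makes NADPH, went the opposite way to the respiratory subunits. It was at 73.7, 78.0 and 70.8 CPM in LiK against 115, 114 and 111 CPM in LiKM. The mice of each genotype lay close together and far from the other genotype, and Idh2 rose with a log2 fold change of 0.61 (SE 0.09, edgeR adjusted p = 0.021). In 5 of the 6 fits without 1 mouse its adjusted p lay between 0.0522 and 0.0881.

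Broadly expressed gene sets outside the pathway also had medians below 0. The 80 tested proteins of the cytosolic ribosome had a median of -0.15, with 76 below 0 (31 with library totals). In 49 (61.25%) every LiKM mouse lay below every LiK mouse and in 1 above. The share below was 48.3% for the respiratory members and 11.8% for all genes. With library totals every LiKM mouse lay below every LiK mouse for 0 of the 80. In that scaling it was 16 of the 89 respiratory members and 3.87% of all genes. None was called by edgeR or DESeq2, and 3 (3.75%) reached an unadjusted p under 0.05 lower and 1 higher. Over all genes tested this was 7.05% lower and 2078 of 13537 higher. The 72 tested proteins of the mitochondrial ribosome, which translates the subunits encoded in mitochondrial DNA, had a median of -0.09 with 58 below 0 (18 with library totals). None was called by edgeR, and DESeq2 called Mrpl34. An unadjusted p under 0.05 was reached by 4 (5.56%), all lower, against 7.05% of all genes. The difference between these medians and that of the respiratory members was not tested.

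Markers of several cell types also moved with the genotype. The 10 hepatocyte markers had a median of -0.28 with 8 below 0 and none called by edgeR (Ttc36 by DESeq2). An unadjusted p under 0.05 was reached by 2 (20%), both lower, against 7.05% of all genes. With library totals 6 were below 0 and the median was -0.11. Of the unscaled counts the markers took 14.4%, 13.6% and 15.5% in LiK and more in LiKM, at 16.4%, 15.9% and 15.7%. Their offsets from the LiK mean were 0.14, -0.12 and -0.04 in LiK and -0.11, -0.29 and -0.37 in LiKM, where LiKM 1 also lay nearest to the LiK mice. Of 9 tested T and natural killer cell markers, 8 rose, beside 5.11% of all genes, and 1 was at -0.94 and was not called. The 8 were Cd3d, Cd3e, Cd3g, Cd8a, Cd8b1, Gzmb, Lck and Nkg7. The 9 tested markers summed to 2.83 to 6.31 CPM in LiK and 11.9 to 16.7 CPM in LiKM. Ncr1, which marks natural killer cells, had 8 counts over all 6 libraries and was not tested. The 8 that rose had at most 8 counts in any LiK library, so they passed the expression filter through the LiKM mice and had to differ to be tested. All 5 markers of dividing cells rose, from 6.24 to 12.6 CPM in LiK to 48.2 to 66.8 CPM in LiKM. Of 7 macrophage markers Cd68 and Emr1 rose (DESeq2 also called Csf1r and Marco), with sums of 163 to 205 against 229 to 323 CPM, and of 6 stellate cell markers Col1a1 rose (DESeq2 also called Des, Reln and Rgs5), with sums of 83.1 to 136 against 201 to 247 CPM. No endothelial or B cell marker was called by edgeR or DESeq2. An unadjusted p under 0.05 was reached by 3 endothelial markers (2 higher and 1 lower) and 0 B cell markers. Over all 13537 genes tested, 2078 higher and 954 lower did so. No cholangiocyte and progenitor marker was called by edgeR, but the 5 tested were all above 0 (median 1.12), 3 reached an unadjusted p under 0.05, and DESeq2 called Epcam and Krt19 higher. In 4 of these 5 every LiKM mouse lay above every LiK mouse, against 17.8% of all genes. The summed level of this list overlapped between genotypes, with LiK 1 at 233 CPM, LiK 2 and LiK 3 at 82.8 and 61.5 CPM, and the LiKM mice at 93.6, 187 and 207 CPM. The muscle markers, whose cells use Cox6a2 and Cox7a1, were all at or below 0.096 CPM. The part that cell makeup takes in the respiratory differences was not tested.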

How the data were processed

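Liver RNA of 3 LiK and 3 LiKM mice was sequenced after messenger RNA selection with a strand-keeping kit, per the labels' protocols. The deposited table gives raw counts of reads per gene symbol. Per the submitters' processing notes, featureCounts and FastQC 0.11.7 were used. How reads were aligned, to which build and annotation, and whether strand was used was not given in the sources used here, so overlapping and antisense genes may share counts. The members, gene lists and tests were chosen with earlier results of these data known.

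Counts were used as deposited. The default filter of edgeR 4.0.16 (count about 10, total 15) left 13537 of 26608 genes, including 89 of 93 members. The 4 untested were Cox4i2, Cox6a2, Sdhd and Cox7a2. Genotypes were compared in R 4.3.3 with edgeR's quasi-likelihood test after TMM scaling (factors 0.903 to 1.11), genotype as the only term, and adjusted by Benjamini-Hochberg over all tested genes. The common biological coefficient of variation was 22.3%. The test was run on simulated counts in which the differences set were larger than those of most members here. That run says nothing of its power for small differences. CPM uses TMM-scaled library sizes. Libraries held 19909993 to 24874343 counts, so counting error is small except for genes of few counts. Per-mouse offsets use log2(CPM + 0.5). Alternatives were DESeq2 1.42.0, other scalings and filters, a replicate block, and each mouse left out.

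Named members were, in each complex, the called genes, the 3 highest by mean CPM, the 2 most positive and the 2 most negative, the isoform genes and subunit c. Of other lists, called genes or the 2 highest were eligible. Members named outside these rules were chosen after their values were seen. Lengths and shared 50-base stretches come from GENCODE vM21 transcripts and promoter sequences from RefSeq (GRCm38.p6). Shared stretches above 10% were found for 25 members. A complex I subunit and part of the genotype shared by both groups are not reported here.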

Additional observations from a re-analysis of the deposited data

How the results depend on the processing

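The number of genes called rose from 802 to 1591 with DESeq2 and ranged from 19 to 626 with 1 mouse left out. With library totals, 94.3% of called genes were higher, against 86.3% with TMM. The number of members called lower was 1, with 0 under library totals, 6 under DESeq2 (beside 377 of all genes called lower, against 110 by edgeR, the 6 being Atp5sl, Ndufb3, Ndufb11, Uqcrq, Ndufv1 and Ndufv3) and 0 to 1 with 1 mouse left out, the single call then being Ndufb3 without LiKM 1. The number called higher, 1, ranged from 0 to 1 with 1 mouse left out. The members' median of -0.19 was -0.035 with library totals and -0.26 to -0.18 with 1 mouse left out. Minus the median of all genes it was -0.24 to -0.16 in those fits. The cause of these differences was not tested.

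With library totals 66 of 89 members were below 0, against 85 with TMM. Of the named genes that reversed there, Atp5b was at 0.0065, Cox15 at 0.10, Cox19 at 0.12, Cox6b1 at 0.0067, Ndufa4l2 at 0.091, Ndufaf1 at 0.020, Sdha at 0.0034, Uqcrc1 at 0.022 and Uqcrc2 at 0.0095. Cox4nb was at -0.012 with median-ratio scaling and with DESeq2, at -0.010 with the replicate block and at -0.0023 without a filter. With 1 mouse left out, Cox4nb ranged from -0.15 to 0.14, Cox15 from -0.14 to 0.022, Cox17 from -0.042 to 0.097, Cox19 from -0.095 to 0.081, Ndufa4l2 from -0.20 to 0.037, Ndufab1 from -0.073 to 0.068, Trp53 from -0.039 to 0.33 and Adck3 from -0.84 to 0.37. Adck3 was at -0.24 with the replicate block. The cause was not tested.

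The mouse numbers are shared by the genotypes, but same-numbered mice deviated together with correlations of 0.267, -0.00028 and 0.127, so the numbers were not taken as pairs, and not every mouse correlated best with its own number. A replicate block gave 835 called genes, the same number of called members (1 higher and 1 lower) and a median of -0.19. Polg2 was not called with it (edgeR adjusted p = 0.0637). Cox4i2, Cox6a2, Sdhd and Cox7a2 held too few counts to be tested, and the cause of the low counts was not tested.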

Other observations

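Adck3 (Coq8a), a kinase-like protein of coenzyme Q synthesis, was at 211, 202 and 176 CPM in LiK and at 97.5, 125 and 393 CPM in LiKM. LiKM 1 and LiKM 2 lay below every LiK mouse and LiKM 3 above all of them, and the log2 fold change was 0.06 (SE 0.49, edgeR adjusted p = 0.951). Without LiKM 3 it was -0.84 (edgeR adjusted p = 0.0395). Sco2, a copper chaperone of complex IV, was listed at 0 in all 6 libraries. Atpif1, the inhibitor of the ATP synthase, had a log2 fold change of 0.38 (edgeR adjusted p = 0.166), opposite in sign to the 15 subunits of its enzyme.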
